A study of Macaca mulatta with 10 samples.

Results

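The proteasome genes described here were all probe sets whose platform annotation gave exactly 1 symbol starting with PSMA, PSMB, PSMC, PSMD, PSME, PSMF or PSMG, apart from the inducible subunits PSMB8, PSMB9 and PSMB10 and the activator genes PSME1 and PSME2. A probe set is a group of short oligonucleotides that together report 1 transcript. No signal level was required, and the rule took 68 of 52865 probe sets, which carry 30 gene symbols. They were measured in liver of rhesus macaques (Macaca mulatta) with 1 array per animal, in 5 brain-dead donors (2 females and 3 males, aged 7 to 18 years, 1 age not given) and in 5 living control donors (3 females and 2 males, aged 4 to 20 years). Brain death was brought about with a balloon catheter slowly filled outside the dura, and fluid together with arginine-vasopressin, dopamine or both kept up the blood pressure. The sample labels put its duration at 6 h and the design text at 5 h. Control animals were sedated, anaesthetised and ventilated for 1 h before the liver was taken, and in both groups organs were flushed in situ with UW preservation solution. Time under ventilation, drugs and brain death therefore differ together between the groups and cannot be told apart.

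The proteasome degrades proteins that carry ubiquitin chains. Its barrel-shaped core has outer rings of alpha subunits (PSMA genes), which gate entry, around inner rings of beta subunits (PSMB genes), of which PSMB5, PSMB6 and PSMB7 cut peptide bonds. A regulatory particle caps the core. Its base holds a ring of ATPases (PSMC genes) that unfold the substrate together with the large scaffold subunits PSMD1 and PSMD2, and its lid (most other PSMD genes) takes part in removing ubiquitin. In liver, as in other tissues, the complex clears damaged and short-lived proteins, and in inflamed tissue the beta subunits PSMB8, PSMB9 and PSMB10 can take the places of PSMB5, PSMB6 and PSMB7.

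Signals were given by the authors on a linear MAS5 scale, in which each array has the same trimmed mean, and array medians lay between 175 and 227. Precision is limited throughout by having 5 animals per group. Both animals numbered 1, 1 brain-dead and 1 control, stood apart from the others on the second principal component of all tested probe sets (absolute scores of 72.1 and 69.6, the others at most 36.1), and the medians of the subunit groups that move with them are also given without them. Of 12 hepatocyte genes listed, 10 had a probe set, all 10 were tested, and none passed by its brightest probe set. A dimmer probe set of SERPINA1, 1 of 6, rose by 1.17, while its other 5 had changes below 0. The summed signal of the list was 1189660 to 1285620 in brain-dead and 1289580 to 1527350 in control animals, so the groups did not overlap. Of 6 neutrophil genes, 5 had a probe set and 4 were tested, of which S100A8 and S100A9 rose. CSF3R, with a change of 0.76 ± 0.34, and the granule protease ELANE, with -0.38 ± 0.40, did not pass, and MPO lay below the filter on signal. The summed signal of the list was 7581 to 56567 in brain-dead and 851 to 5924 in control animals, again without overlap, and S100A8 and S100A9 made up most of it, with means of 12411 and 13929 in brain-dead animals, against 1043 and 1257 in controls. Sums of the macrophage, lymphocyte, endothelial, stellate cell, bile duct and erythroid genes overlapped between the groups, and no list was at 0. The part of these shifts in the values below was not tested, and in a tissue sample fewer cells of a type and less RNA per cell cannot be told apart. The 3′ to 5′ signal ratio of GAPDH, a sign of RNA integrity, was 0.85 to 1.25 in brain-dead and 0.96 to 1.12 in control animals.

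Brain death was set against control to ask how liver transcripts differ before organ recovery. Of the proteasome genes 1 rose and none fell. PSMD7, the lid subunit that pairs with the deubiquitinase PSMD14, rose 1.80-fold (log2 change 0.85 ± 0.23 with its SE, 5 against 5 animals, adjusted p = 0.0477, limma with Benjamini-Hochberg). Of the 68 probe sets, 59 exceeded the median of the array on 5 or more of the 10 arrays and were tested, and they represent 29 of the 30 genes. Among these 59 probe sets 1 rose and 0 fell at an adjusted p under 0.05, where 2.72% of all 26652 tested probe sets rose and 3.39% fell (6.1% in either direction). By gene, each represented by its brightest probe set, 1 of 29 rose and 0 fell, beside 2.9% and 3.87% of all 9835 genes (6.77% in either direction), so the share of proteasome genes called was near the background. At an unadjusted p under 0.05 in limma, 5 genes were higher and 0 lower (11.9% and 13.2% of all genes), and 8 probe sets were higher and 1 lower (11.5% and 12.2% of all probe sets). PSMD7 was the 1 gene called, and 14 of 24 alternative settings ended that call, among them leaving out any 1 animal except control animal 4 (adjusted p between 0.0174 and 0.118 over all alternatives, limma with Benjamini-Hochberg).

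Small differences in 1 direction were common among the 29 genes, PSMD7 included. Of the 29 genes, 24 had a log2 change above 0, with a median of 0.33 and quartiles of 0.08 and 0.46, while 49.5% of all genes lay above 0 and their median was -0.007. These quartiles are a spread over genes that moved together, not over animals. The median deviation of the 29 genes from their means had an SD of 0.46 over the control animals, the group with the larger SD. By probe set, 39 of 59 lay above 0, beside 49.8% of all. The changes ran from -0.39 for PSMF1 to 0.90 for PSMA1. The groups did not overlap for 3 genes, all higher in brain-dead animals, beside 3.65% of all genes in that direction and 4.15% in the other. By probe set it was 4 higher and 0 lower, beside 3.33% and 3.6% of all. For 21 of the 29 genes the 95% interval of the change lay between -1 and 1, so a change of 2-fold or more fell outside the interval of these genes, and for 5 genes the interval lay above 0 before adjustment. The median moved most with control animal 1. Without that animal it was 0.14 with 19 of 29 genes above 0, and without both animals numbered 1 it was 0.23 with 21 of 29 above 0, while the median of all genes was -0.010 and -0.008.

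**Figure D1:**
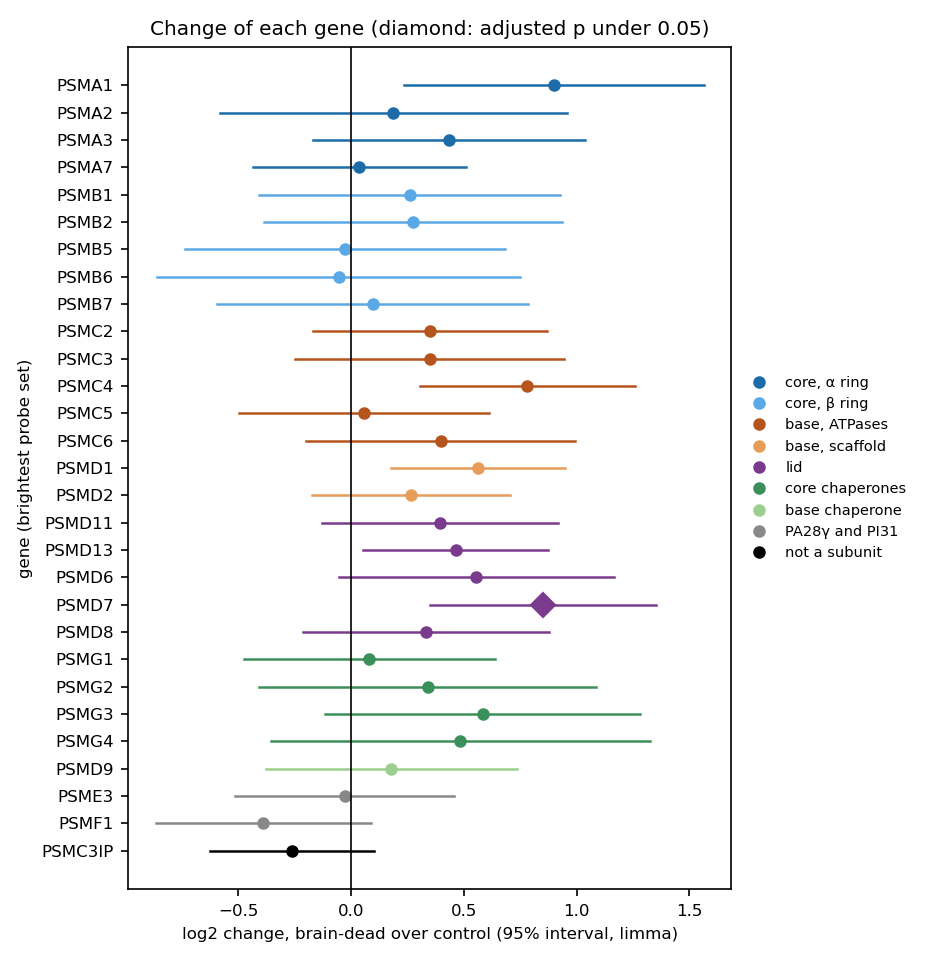
Change of each proteasome gene, grouped by role. Points are log2 changes of brain-dead over control livers for the brightest probe set of each of 29 genes, lines are 95% intervals of limma (n = 5 animals per group), and the diamond marks PSMD7, the gene with an adjusted p under 0.05. Lid genes lie between 0.33 and 0.85, whereas the beta ring genes lie between -0.06 and 0.28.

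The lid held the largest median change of the roles with 5 genes tested. Changes were above 0 for all 5 lid genes tested, of 8 on the list, their median was 0.46, and 1 passed. PSMD7 had a signal of 14016, 13229.7, 11339, 15136 and 20285 in brain-dead animals 1 to 5, against 5981, 6895, 7219, 11095 and 10294 in control animals 1 to 5. Every brain-dead animal lay above every control, and the closest pair was brain-dead animal 3 and control animal 4. PSMD13, a lid subunit that binds its neighbours through a PCI domain, had a signal of 14475, 11588, 12786, 14467 and 12104 in brain-dead animals 1 to 5, against 7486, 10184, 8761, 12491 and 9024 in control animals 1 to 5. Control animal 4 reached into the range of the brain-dead animals, and the change of 0.46 ± 0.19 did not pass (adjusted p = 0.161, limma with Benjamini-Hochberg). PSMD6, another PCI subunit, had a change of 0.56 ± 0.28 and its highest brain-dead animal, at 12306, lay next to control animal 4, at 12239. PSMD11, which helps to hold lid and core together, had changes of 0.39 and 0.37 in its 2 probe sets. PSMD8, in yeast the last subunit to join the lid, had the smallest change of the lid genes (0.33 ± 0.25, adjusted p = 0.461, limma with Benjamini-Hochberg). Without control animal 1 all 5 lid genes still lay above 0 (median 0.32), and without both animals numbered 1 likewise, with a median of 0.33.

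Both large scaffold subunits of the base were also higher in mean signal, and neither passed. PSMD1 had a signal of 14846, 11286, 10956, 10454 and 10854 in brain-dead animals 1 to 5, against 8069, 7530.2, 6933, 8704 and 8087 in control animals 1 to 5. The groups did not overlap, brain-dead animal 1 was the highest of all 10, and the change of 0.56 ± 0.18 missed the threshold (adjusted p = 0.0795, limma with Benjamini-Hochberg). Its other probe set, with a mean signal in brain-dead animals of 6052 ± 722 (SD, n = 5), had a change of 0.11. PSMD2, which docks ubiquitin-carrying shuttle proteins, had a mean signal of 7359 ± 1346 in brain-dead animals and 6108 ± 979 in controls (SD, n = 5 each), with a change of 0.26 ± 0.20. ADRM1, a ubiquitin receptor of the base that the symbol rule does not take, had a change of 0.46 ± 0.23 (adjusted p = 0.240, limma with Benjamini-Hochberg).

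Of the 6 ATPases of the base, 5 were tested, none passed, and all 5 lay above 0 with a median of 0.35. Without control animal 1 the median was 0.16 with 4 of 5 above 0 (PSMC5 at -0.14), and without both animals numbered 1 it was 0.17 with 4 of 5. PSMC4 had a signal of 4252, 4353, 5502, 6163 and 4694 in brain-dead animals 1 to 5, against 1969.6, 3663, 2602, 3233 and 3234 in control animals 1 to 5. The groups did not overlap and the fold change was 1.72, yet the adjusted p was just over the threshold (log2 change 0.78 ± 0.22, adjusted p = 0.0538, limma with Benjamini-Hochberg). The other probe sets of PSMC4 disagreed. One had a change of 0.53 ± 0.23 and overlapping groups, and the dimmest, with 558 ± 90.4 in brain-dead animals and 737 ± 213 in controls (SD, n = 5 each), had one of -0.36 ± 0.25, neither past the threshold. PSMC4 passed under 3 of the alternatives, the replicate block, array weights and the filter at the 75th percentile. The brightest PSMC4 probe set carries the platform's mark for possible binding to several transcripts. PSMC6, PSMC2 and PSMC3 had changes of 0.40, 0.35 and 0.35. PSMC5 had the smallest, 0.06 ± 0.26, with a 95% interval of -0.50 to 0.61, and its second probe set had one of -0.02.

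**Figure D2:**
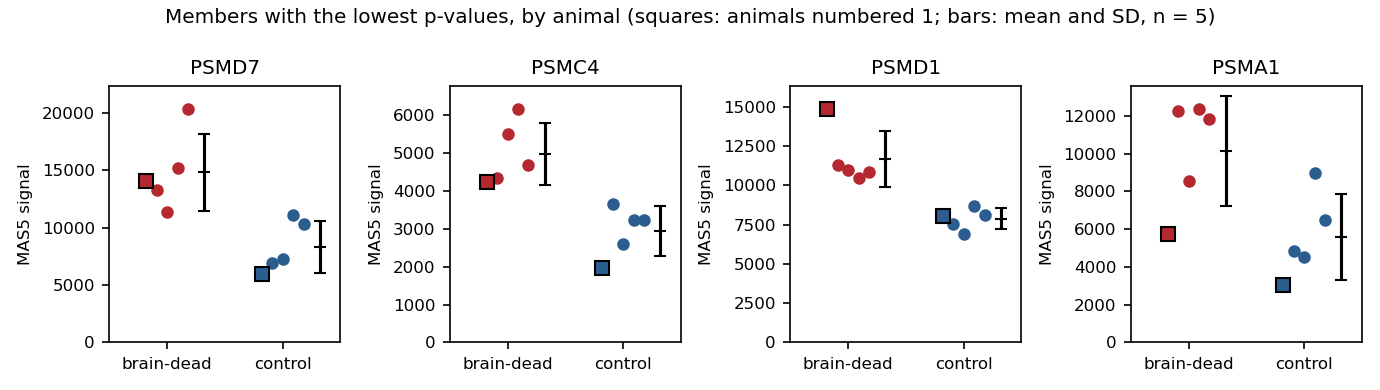
Signals of the 4 genes with the lowest p-values, by animal. Points are MAS5 signals of single animals on a linear axis from 0, squares are the animals numbered 1, and bars are means with SD (n = 5 per group). The groups are separate for PSMD7, PSMC4 and PSMD1 and overlap for PSMA1, where brain-dead animal 1 lies among the controls.

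In the alpha ring, 4 genes of 8 on the list were tested, none passed, and all 4 lay above 0 with a median of 0.31. Without control animal 1 the median was 0.03 with 2 of 4 above 0, and without both animals numbered 1 it was 0.17 with 3 of 4. PSMA1 had the largest change of all 29 genes, 0.90 ± 0.31, from a probe set marked for possible binding to several transcripts. It had a signal of 5727, 12229, 8549.6, 12344 and 11830.2 in brain-dead animals 1 to 5, against 3024, 4855, 4521, 8984 and 6507 in control animals 1 to 5. Brain-dead animal 1 lay below control animals 4 and 5, so the groups overlapped (adjusted p = 0.100, limma with Benjamini-Hochberg). The second probe set of PSMA1, without that mark, had a change of 0.67 ± 0.22, below those of PSMD7 and PSMC4. There brain-dead animal 1 was the highest of the 10, at 2619. PSMA1 passed under 3 of the alternatives, the replicate block, array weights and leaving out control animal 4. PSMA3 had a change of 0.43 ± 0.28 and PSMA2 one of 0.19 ± 0.36, which were 0.19 and -0.15 without control animal 1. PSMA7 had a signal of 29301 ± 5425 in brain-dead animals and 28900.2 ± 6776 in controls (SD, n = 5 each), and had the smallest change of the ring (0.04 ± 0.22, 95% interval -0.44 to 0.51), which was -0.13 without control animal 1.

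The 5 PSMA2 probe sets differed in how they placed the animals numbered 1. The brightest had a signal of 11135 in brain-dead animal 1 and 6251 in control animal 1, each the lowest of its group. A dimmer one had 3858 and 3623 in the same animals, each the highest of its group. The changes of the 5 lay between -0.24 and 0.20 and none passed.

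The beta ring had the smallest median change of the 5 subunit groups. None of the 5 genes tested passed even without adjustment, 3 had a change above 0 and 2 below, and the median was 0.10. PSMB5, which carries the chymotrypsin-like activity, had a signal of 6349, 13624, 12849, 16291 and 8648 in brain-dead animals 1 to 5, against 5169, 12290.3, 13164, 15584 and 13228 in control animals 1 to 5. In both groups animal 1 was the lowest and the ranges of the groups coincided closely (log2 change -0.03 ± 0.33, 95% interval -0.74 to 0.68, adjusted p = 0.972, limma with Benjamini-Hochberg). PSMB6, with caspase-like activity, had a mean signal of 10602 ± 3695 in brain-dead animals and 11098 ± 3973 in controls (SD, n = 5 each) and a change of -0.06 ± 0.37 (95% interval -0.86 to 0.75). PSMB7, with trypsin-like activity, had 13995 ± 3583 in brain-dead animals and 13640.2 ± 4755 in controls (SD, n = 5 each) and a change of 0.10 ± 0.32 (95% interval -0.59 to 0.79). The non-catalytic PSMB1 and PSMB2 had changes of 0.26 ± 0.31 and 0.28 ± 0.31. Without control animal 1 the median of the ring was -0.21 with 2 of 5 genes above 0, and without both animals numbered 1 it was -0.02, so the sign of the ring's median depended on control animal 1. PSMB11, a beta subunit of thymus, lay below the filter, with signals from 114 to 239 in brain-dead and from 108 to 216 in control animals.

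All 4 chaperones of core assembly were tested, had a change above 0 and did not pass (median 0.41). Without control animal 1 the median was 0.15 with 3 of 4 above 0 (PSMG1 at -0.06), and without both animals numbered 1 it was 0.43 with 3 of 4. PSMG3 had a change of 0.58 ± 0.32 with a signal of 2549, 3141, 3179, 5623 and 6069 in brain-dead animals 1 to 5, against 1296, 2899, 2776, 3736 and 2954 in control animals 1 to 5. Brain-dead animals 4 and 5 were high and the other 3 lay within the range of the controls. PSMG4 had changes of 0.48 ± 0.39 in its brighter and 0.83 ± 0.33 in its dimmer probe set, whose groups did not overlap (adjusted p = 0.489 and 0.142, limma with Benjamini-Hochberg). In that dimmer probe set control animal 1 was at 102 and the other controls at 286 to 378, against 394 to 525 in brain-dead animals. PSMG1, which pairs with PSMG2 to guide the alpha ring, had the smallest change (0.08 ± 0.26). The 2 probe sets named PSMG2 carry different gene IDs. The brighter, with a change of 0.34, stands for PSMG2 in these counts, but its gene ID was not found in the reference gene table. The dimmer, whose gene ID is listed there as PSMG2, had a change of -0.23. Of the chaperones of the base PSMD9 was taken by the rule, with a change of 0.18 ± 0.26.

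Both genes of regulators had changes below 0 that did not pass. PSMF1, a binding partner of the core known as PI31, had the lowest change of the 29 genes (-0.39 ± 0.22), with a signal of 3889, 2425, 2295, 2354 and 2969.6 in brain-dead animals 1 to 5, against 4885, 3270.3, 3331, 3009 and 3635 in control animals 1 to 5. Brain-dead animal 1 lay above 4 of the 5 controls, and the change did not pass (adjusted p = 0.310, limma with Benjamini-Hochberg). The other 3 tested probe sets of PSMF1 had changes of -0.31, 0.27 and -0.13. PSME3, the nuclear activator PA28 gamma, had a dim signal of 376 ± 43.3 in brain-dead animals and 389.9 ± 92.1 in controls (SD, n = 5 each) and a change of -0.03 ± 0.23. PSMC3IP is taken by the symbol rule although it encodes a recombination factor that binds PSMC3 and is no proteasome subunit. Its brightest probe set had a change of -0.26 ± 0.17, and the changes of its 8 probe sets ran from -0.50 to 0.44, none past the threshold. Without PSMC3IP the median over the other 28 genes was 0.34. The 9 probe sets below the filter belong to PSMA7, PSMB2, PSMB11, PSMD6, PSME3, PSMG1 and PSMG3, and all of these genes but PSMB11 had another probe set that was tested.

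**Figure D3:**
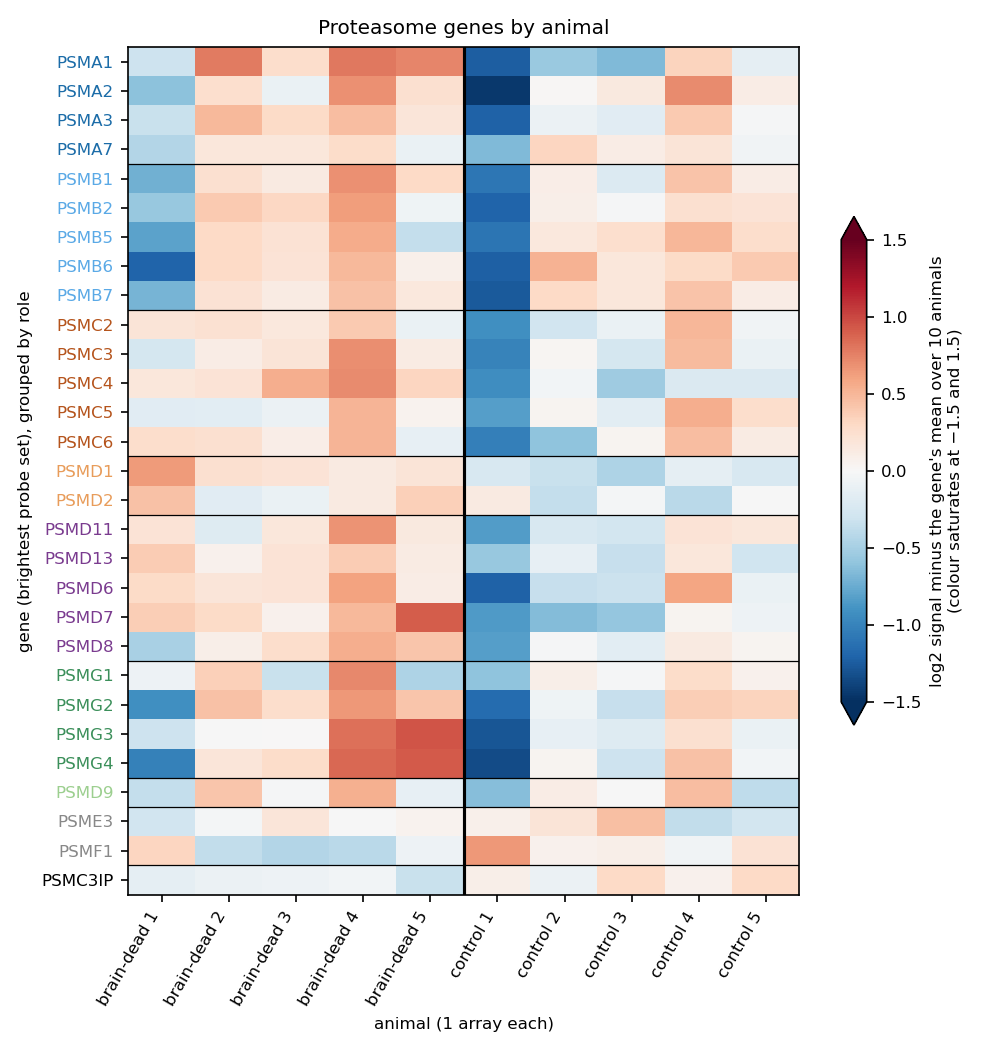
Proteasome genes by animal. Colour shows the log2 signal of the brightest probe set of each of 29 genes minus its mean over all 10 animals, with brain-dead animals left of the line and control animals right of it, and genes grouped by role. Control animal 1 is low in every subunit role but the base scaffold, and brain-dead animal 1 is low in the beta ring, with a median of -0.72, but not in the lid, with 0.29.

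Animals of 1 group differed from each other in most subunit genes at once. Control animal 1 was the lowest of the 10 for 24 of the 29 genes, and brain-dead animal 4 the highest for 14. The median deviation over the 29 genes was -0.28, 0.22, 0.17, 0.53 and 0.13 in brain-dead animals 1 to 5, against -0.94, -0.02, -0.16, 0.28 and -0.01 in control animals 1 to 5 (log2, relative to each gene's mean). Brain-dead animals 2 to 5 were above 0, as was control animal 4. The same medians over all genes stayed between -0.03 and 0.07. Each array was scaled to the same trimmed mean, so all these deviations are relative to the other genes of each array. Control animal 1 was the lowest for all 4 alpha, all 5 beta, all 5 ATPase and all 5 lid genes, but for neither base scaffold gene. Brain-dead animal 1 lay below control animals 2 to 5 for 3 of 4 alpha and 5 of 5 beta genes, but for 1 of 5 ATPase and 1 of 5 lid genes. It lay above every control for both scaffold genes and 2 lid genes. The beta ring median was -0.72 in brain-dead animal 1 and 0.07 to 0.56 in brain-dead animals 2 to 5, against -1.20 in control animal 1 and 0.15 to 0.43 in control animals 2 to 5. The lid median was 0.08 to 0.55 over the 5 brain-dead animals, against -0.83 in control animal 1 and -0.32 to 0.17 in control animals 2 to 5.

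Over the 21 core and regulatory subunit genes, the median Pearson correlation of the deviations from the group means was 0.737 over 210 pairs (quartiles 0.473 and 0.868, 10 animals), beside 0.000839 over all pairs of genes. The points share arrays and their scaling, and without both animals numbered 1, a choice made after seeing the data, the median was 0.544. PSMD2 and PSMD1 had the lowest correlations with the mean of the other subunit genes, -0.606 and -0.297, where the other 19 lay between 0.580 and 0.976. With group means left in, PSMD2 and PSMD1 had -0.231 and 0.269, and the other 19 lay between 0.667 and 0.972. All these values include both animals numbered 1, and brain-dead animal 1 was the highest of the 10 for PSMD1 and PSMD2. Sex divides the animals as well. In values computed after seeing the data, within females (2 brain-dead, 3 control) the median change of the 29 genes was 0.28, and within males (3 brain-dead, 2 control) it was 0.09, with 23 and 19 genes above 0. PSMD7 had differences of 1.03 within females and 0.50 within males. Both animals numbered 1 are female, so control animal 1, the lowest of the 10 for PSMD7 and most other genes, is among the 3 female controls. A difference between the sexes in the effect was tested for all 59 probe sets, and none passed (limma interaction, Benjamini-Hochberg, lowest adjusted p = 1.00, with 0 of 59 under 0.05 without adjustment, beside 3.81% of all probe sets).

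The inducible subunits were set beside their constitutive counterparts. Of the 5 genes PSMB8, PSMB9, PSMB10, PSME1 and PSME2, 3 had a probe set of that single symbol, and 2 of these rose, beside 2.9% of all genes. PSMB8, which can replace PSMB5, had a signal of 3867, 6628, 3725, 9540.3 and 13106 in brain-dead animals 1 to 5, against 834, 3110.4, 2216, 1823 and 1309 in control animals 1 to 5. Every brain-dead animal lay above every control, and the log2 change was 1.95 ± 0.41 (adjusted p = 0.0180, limma with Benjamini-Hochberg), a call kept under all 24 alternatives. PSMB10, which can replace PSMB7, had a signal of 1891, 4878, 3011, 7418 and 9243 in brain-dead animals 1 to 5, against 874, 1874, 1871, 1193 and 1466 in control animals 1 to 5. Its groups just failed to overlap, with brain-dead animal 1 next to control animals 2 and 3, and its change was 1.69 ± 0.40 (adjusted p = 0.0275, limma with Benjamini-Hochberg). The call of PSMB10 ended under 4 of 23 alternatives. These were without brain-dead animal 4, brain-dead animal 5 or control animal 1, or with terms for sex and age, which also leaves out brain-dead animal 3. The second probe set of PSMB10, with a change of 1.24 ± 0.42, did not pass. With the mean over a gene's probe sets, or without probe sets that may bind several transcripts, 1 of the inducible genes rose.

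Each inducible subunit was then set against its counterpart within the same array. The log2 ratio of PSMB8 to PSMB5 was higher in brain-dead than in control animals by 1.98 ± 0.45 (SE over animals, n = 5 each), and that of PSMB10 to PSMB7 by 1.60 ± 0.35. Neither ratio overlapped between the groups, and the two-sided exact permutation test gave p = 0.00794 for each, the smallest it can give with 5 against 5 (0.00794 after Benjamini-Hochberg over the 2 ratios). PSMB8 and PSMB10 were already separate between the groups in these same arrays, so the test is no further support for their rise. PSMB8 and PSMB10 changed by more than PSMB5 and PSMB7. PSME2, a subunit of the activator PA28, had probe sets with opposite changes, -0.55 ± 0.27 in the brighter and 0.70 ± 0.38 in the dimmer, neither past the threshold (adjusted p = 0.239 and 0.276, limma with Benjamini-Hochberg). The brighter carries the platform's mark for possible binding to several transcripts, with means of 54438 in brain-dead animals and 81691.5 in controls. Whether it reports PSME2 alone was not tested. The neutrophil list was higher in its summed signal in the same animals, mostly through S100A8 and S100A9, whereas ELANE and CSF3R did not pass. Their part in the rise of PSMB8 and PSMB10 was not tested.

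**Figure D4:**
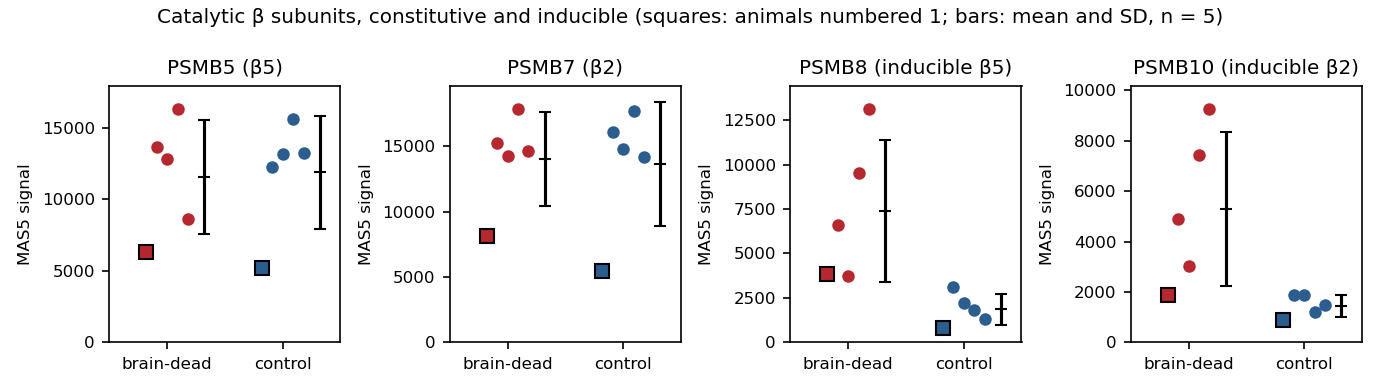
Constitutive catalytic subunits PSMB5 and PSMB7 and their inducible counterparts PSMB8 and PSMB10, by animal. Points are MAS5 signals on linear axes from 0, squares are the animals numbered 1 and bars are means with SD (n = 5 per group). The groups coincide for PSMB5 and PSMB7 and are separate for PSMB8 and PSMB10.

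Genes that act with the proteasome were followed in further lists. The subunit SEM1 had a change of -0.22 ± 0.42 and did not pass. The 8 tested assembly and binding factors include USP14, and whether its probe sets report that gene was not tested. Of the 8, 0 rose and 1 fell, beside 2.9% and 3.87% of all genes. That was ZFAND5, a zinc finger protein that binds the proteasome and stimulates it, with a signal of 15384, 9639.8, 10716, 18393 and 11439.8 in brain-dead animals 1 to 5, against 27108, 25895, 23463, 18995 and 26545 in control animals 1 to 5. All brain-dead animals lay below all controls (log2 change -0.93 ± 0.21, adjusted p = 0.0261, limma with Benjamini-Hochberg). Its 3 other probe sets had changes of -1.04, -0.48 and -1.82, of which the first and the last passed, but the call of the brightest ended under 10 of 24 alternatives, 6 of them without 1 animal (brain-dead animals 3 and 5 and control animals 1, 2, 3 and 5). Of 7 genes of ubiquitin activation and shuttling, 10 of p97 and its cofactors, and 9 of transcription factors that act on subunit genes, none passed by its brightest probe set. With the replicate block 1, 1 and 3 genes of these lists rose. The medians of these 3 lists were 0.006, 0.36 and 0.32, and 4 of 7, 8 of 10 and 5 of 9 genes lay above 0. NFE2L1, the transcription factor that raises subunit genes when proteasome activity falls short, had a change of -0.42 ± 0.20 in its brightest probe set, and its other 2 had -0.53 and -0.41 (adjusted p = 0.225, 0.131 and 0.224, limma with Benjamini-Hochberg). STAT3 and MAFF of the same list went the other way, with changes of 1.05 ± 0.32 and 1.00 ± 0.31. NFE2L2, also listed, had 0.67 ± 0.21 in its brightest probe set, and its others had 0.72, -0.48, -0.53 and -0.30. STAT3, MAFF and NFE2L2 did not pass (adjusted p = 0.0683, 0.0773 and 0.0768, limma with Benjamini-Hochberg). By brightest probe set the groups did not overlap for STAT3 and NFE2L2, both higher, beside 3.65% of all genes in that direction. Dimmer probe sets of NFE2L1 and NFYB did not overlap either, and were lower.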

How the data were processed

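RNA of 10 livers was hybridised to a 1-colour array, 1 array per animal. The authors deposited a linear intensity for each probe set on each array, computed with MAS5 per the submitters' processing notes, with no version given in the sources used here. On each array the deposited signals have a trimmed mean of 1000 (2% off each end). Signals were log2 transformed with no pseudocount and no further normalization. The 158 control and reporter probe sets were left out, and probe sets above their array's median on at least 5 of 10 arrays were tested, which left 26652. Gene names come from the platform annotation of 2016, in which 24969 probe sets have 1 symbol, 361 several and 27535 none. Of the 31 gene IDs of the proteasome probe sets, 30 were found in the RefSeq gene table of T2T-MMU8v2.0. The genes PSMA4, PSMA5, PSMA6, PSMA8, PSMB3, PSMB4, PSMC1, PSMD3, PSMD4, PSMD5, PSMD10, PSMD12, PSMD14 and PSME4 had no probe set of that single symbol and are not analysed here.

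Groups were compared with limma 3.58.1 under R 4.3.3, using lmFit and eBayes (trend on) and no covariate, fitted over all tested probe sets with Benjamini-Hochberg adjustment and a threshold of 0.05, and checked on simulated data. A gene was represented by its probe set with the highest mean. Errors of changes are limma's standard errors, and intervals use its moderated degrees of freedom. Ratios within an array were compared by an exact permutation test over animals. This comparison was not among those planned. Replicates are separate animals. No source used here ties a replicate number to a batch or animal shared by both groups, so the numbers entered only the alternatives. The symbol rule, the gene lists, the roles, the named genes and the alternatives were chosen with earlier results of these data known. The rule for named genes took proteasome probe sets past the threshold, the largest and smallest absolute change of each role, genes whose probe sets have opposite signs and lie more than 1 apart (log2), the catalytic subunits, the inducible genes, and genes of other lists past the threshold. Further proteasome genes, ADRM1, SEM1, NFE2L1, NFE2L2, STAT3 and MAFF are given beyond that rule and were chosen after their values were seen. Alternatives changed the scaling (quantile, median), the pseudocount (16, 64), the filter (none, 75th percentile), the model (sex, sex with age, replicate block, eBayes options, array weights), the probe sets used, or left out arrays. Sex with age can only be fitted to animals with a given age, so that setting also lacks brain-dead animal 3. Figures were drawn with matplotlib 3.10.9.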

Additional observations from a re-analysis of the deposited data

Results flagged for a closer look

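Within each group of 5 animals, the highest or lowest signal was examined for its distance from the nearest other animal by Dixon's criterion (critical value 0.71), for 118 groups of the 59 tested probe sets. Of these, 17 held an animal that stood apart, or 14.4%. Chance gives about 5% for independent, normally distributed values. The 118 groups hold the same animals over genes that move together, on a linear scale, so setting 14.4% beside 5% is no test. The animals numbered 1 account for 13 of the 17, control animal 1 for 9 and brain-dead animal 1 for 4. Values below are MAS5 signals of 1 probe set, each followed by the range of the other 4 animals of its group. Brain-dead animal 1 was low for PSMB6 at 4386 against 10588 to 14039.8, PSMB7 at 8096 against 14241 to 17817 and PSMG2 at 2323 against 5247 to 6893. It was high for PSMD1 at 14846 against 10454 to 11286. Control animal 1 was low for PSMA7 at 5412 against 12152 to 15442, PSMB2 at 5059 against 11481 to 13793, PSMB5 at 2773 against 7295 to 9199, PSMB5 at 5169 against 12290.3 to 15584, PSMB6 at 4307 against 11295 to 14456, PSMB7 at 5492 against 14135 to 17692, PSMG3 at 1296 against 2776 to 3736 and PSMG4 at 102 against 286 to 378, where PSMB5 stands for 2 probe sets. It was high for PSMA2 at 3623 against 1714 to 2082. Control animal 2 was low for PSMA3 at 54 against 215 to 299 and high for PSMC3IP at 325 against 189.9 to 208. Control animal 4 was low for PSMG2 at 679 against 1589.8 to 1919.7 and high for PSMD1 at 7476 against 5001 to 5291. PSMB6 and PSMB7 stood apart in both groups through the animals numbered 1, and signals of the array's BioB hybridisation control were also highest in these, at 3622 in brain-dead animal 1 (the others at 2121 to 2933) and 4048 in control animal 1 (the others at 2444 to 2986). The part of hybridisation in these values was not tested.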

How the results depend on the processing

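The number of proteasome genes that rose was 1 and stayed at 1 with quantile normalization, pseudocounts of 16 and 64, sex and age in the model, robust eBayes, without probe sets that can bind several transcripts, and with the mean over a gene's probe sets, each time PSMD7. The fit with sex and age leaves out brain-dead animal 3, whose age is not given, so it changes the animals as well as the model. The number of genes that rose was 0 with centring on the median, without a filter, with sex in the model, with eBayes without trend and without both animals numbered 1. It was 2 with the filter at the 75th percentile and 3 with array weights. With 1 animal left out and no other change it ranged from 0 to 2 genes and from 0 to 3 probe sets, and it was above 0 only without control animal 4. With the replicate block it was 3 (PSMA1, PSMC4 and PSMD7), but samples of the same number deviated together with correlations of 0.380, 0.064, 0.128, 0.089 and 0.128, and 3 of 10 animals correlated best with their own number, so the numbers were not taken as pairs, although the pair numbered 1 had the highest correlation. No proteasome gene fell under any of these settings. In the other lists, 1 transcription factor rose with array weights, 1 p97 gene rose and 1 transcription factor fell with the mean over probe sets, 1 ubiquitin gene rose without brain-dead animal 2 and 1 p97 gene without control animal 4. With the block 2 binding factors fell. With 1 animal left out, the median change of the genes ranged from 0.14 to 0.41. PSMD7 changed by 0.73 to 0.96 over all alternatives, and its lost calls are given with its values. Over the whole array 724 probe sets rose and 903 fell, against 1439 and 1574 with the block, 480 and 576 without a filter, 427 and 608 with sex and age, 297 and 377 without both animals numbered 1, and 300 to 1026 and 356 to 1264 with 1 animal left out. The number of arrays and, for probe sets near the array median, the signal limit what can be called.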

Other observations

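The deubiquitinase USP14, on the list of binding factors, is named for 5 tested probe sets of which the brightest had a signal of 19379, 29687, 82407, 32783 and 37540.5 in brain-dead animals 1 to 5, against 32543, 52819.8, 46995, 117732 and 77690.1 in control animals 1 to 5. One of the USP14 probe sets carries the same cluster number as the probe set named HBB (beta globin), which had 642, 904, 3275, 646 and 619.8 in brain-dead animals, against 772, 1768, 1164, 4982 and 1094 in control animals. Brain-dead animal 3 and control animal 4 were the highest of their groups in both. Whether these probe sets report USP14 was not tested, and none of the 5 passed (limma, Benjamini-Hochberg adjusted p = 0.217 to 0.310). UBXN4, a cofactor of p97 that is anchored in the endoplasmic reticulum membrane, had 4 probe sets with changes of 0.67, 1.05, 0.71 and 0.80, of which the second passed (adjusted p = 0.0226, limma with Benjamini-Hochberg) and the brightest, the first, did not (0.0724). NFYB, a subunit of the CCAAT-binding factor NF-Y, had 4 probe sets with changes of -0.80, -0.87, -0.52 and -1.13, of which the dimmest passed (adjusted p = 0.0283, limma with Benjamini-Hochberg). UBXN4, NFYB and USP14 were singled out after their values were seen.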
